A study of Mus musculus with 6 samples.

Results

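The 10 genes described here form the core of the mammalian circadian clock. They are the activators Clock and Arntl, the cryptochromes Cry1 and Cry2, the period genes Per1, Per2 and Per3, the nuclear receptors Nr1d1 and Nr1d2, and the output factor Dbp. They were found by gene name among the 54446 annotated genes of the deposited files, and all 10 were present. RNA-Seq was performed on 6 libraries of CD8+ T cells isolated by negative selection from spleens of wild-type C57BL/6 mice of 8 weeks, 2 libraries in each of 3 groups. The groups were unstimulated fresh cells, control cells stimulated without magnets by antibodies to CD3 and CD28 fixed to the plate, and SMF cells stimulated with the same antibodies on permanent magnets giving a static magnetic field of 0.3 T. The time of day at which cells were taken, and whether the 2 libraries of a group came from separate mice, are not given in the sources used here. The p-values below therefore measure only the spread between these libraries, which may be technical. The study asked whether the field altered T cell function, and it considered Cry1 and Cry2 as candidate magnetoreceptor genes.

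The clock is a feedback loop of transcription. CLOCK and BMAL1, the product of Arntl, bind E-box elements and switch on the Per and Cry genes, whose proteins then enter the nucleus and inhibit that pair. A side loop runs through Nr1d1 and Nr1d2, which encode the repressors REV-ERB alpha and beta and act on Arntl, while Dbp is a direct E-box target that drives rhythmic output genes through D-box elements. T cells carry this clock, and lymphocyte trafficking and responses vary over the day. Cryptochromes are related to light-sensing photolyases and have been discussed as magnetic sensors in animals.

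Levels are given in FPKM, fragments per kilobase of transcript corrected for library size, summed over the annotated transcripts of a gene. The depth, computed as coverage times transcript length, ranged from 64.4 to 258.6 Mb of aligned bases per library, and the clock genes took 0.0106% to 0.0239% of it. The median clock gene rested on 655 to 2222 aligned bases per library, and 0 to 2 of the 10 were listed at 0, so single values are coarse. The file headers carry 3 dates, 1 for replicate 1 of unstimulated and control cells, 1 for replicate 2 of both, and 1 for both SMF libraries. Libraries that share a date are called a run here. That the dates mark sequencing runs was assumed and not tested. Each run thus gives a control minus unstimulated difference, whereas run and field cannot be told apart between SMF and control cells. SMF and unstimulated cells share no run either, so that run, stimulation, culture and field cannot be told apart between them. The unstimulated cells were fresh whereas control cells were also cultured, so stimulation and time in culture cannot be told apart between those groups. Summed FPKM of 5 CD8 T cell markers was 521 to 632 in unstimulated, 271 to 441 in control and 629 to 748 in SMF libraries, while 4 markers of stimulation (Il2ra, Gzmb, Mki67, Ifng) summed to 32.9 to 47.7, 1859 to 1905 and 2629 to 4790. Markers of other cells were also present, most of all in the fresh cells. B cell markers (5 genes) summed to 111 to 147 FPKM in unstimulated, 7.78 to 23.3 in control and 2.43 to 4.50 in SMF libraries. Myeloid markers (5 genes) summed to 131 to 144, 47.0 to 53.8 and 41.1 to 50.5, with Lyz2 at 42.4 and 74.0 in unstimulated cells and at 0 in the others. NK markers (3 genes) summed to 7.66 to 13.8 FPKM in unstimulated libraries and were at 0 in all others, erythroid markers (4 genes) to 18.3 to 19.1, 5.21 to 7.16 and 1.51 to 10.1, and CD4 T cell markers (3 genes) to 11.9 to 29.0, 11.9 to 21.5 and 11.8 to 11.9. Not every marker was lost. Csf1r was at 68.5 and 63.9 FPKM in unstimulated, 47.0 and 53.8 in control and 41.1 and 50.4 in SMF libraries. Foxp3 was at 20.7 and 4.92, 11.9 and 19.3, and 11.9 and 11.8 in the same order. All comparisons with unstimulated cells are accompanied by a fall in most of these marker sums, and its part in any result was not tested. In bulk RNA, fewer cells of a type and less RNA per cell cannot be told apart.

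The loop's DNA elements can be read in the promoters. RefSeq promoters of 300 bases around the start (build GRCm38.p6) were matched by symbol for 9 of the 10 genes, 13 promoters in all, and Per2 had no entry. The 4 shown are those of the cryptochromes, which the study asked about, and of Per1 and Nr1d1, the genes with the most called differences. Each is read from 5′ to 3′ on the gene's strand, at chr10:85185005-85185304 (minus) for Cry1, chr2:92434020-92434319 (minus) for Cry2, chr11:69098699-69098998 (plus) for Per1 and chr11:98775328-98775627 (minus) for Nr1d1. Capitals mark the E-box CACGTG and the E-prime box CACGTT, searched on both strands, so that the latter also appears as AACGTG.
Cry1: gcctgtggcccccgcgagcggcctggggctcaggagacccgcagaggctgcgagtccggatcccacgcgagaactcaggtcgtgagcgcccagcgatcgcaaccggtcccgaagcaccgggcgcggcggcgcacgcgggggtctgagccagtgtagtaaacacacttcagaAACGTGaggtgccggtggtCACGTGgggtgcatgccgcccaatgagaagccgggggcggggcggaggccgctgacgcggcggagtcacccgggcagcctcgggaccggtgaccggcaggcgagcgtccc
Cry2: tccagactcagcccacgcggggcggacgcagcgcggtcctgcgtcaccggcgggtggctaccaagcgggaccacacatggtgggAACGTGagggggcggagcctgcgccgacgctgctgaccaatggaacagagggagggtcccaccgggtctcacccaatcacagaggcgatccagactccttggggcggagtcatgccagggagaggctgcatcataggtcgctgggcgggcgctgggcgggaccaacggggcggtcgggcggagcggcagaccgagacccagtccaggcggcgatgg
Per1: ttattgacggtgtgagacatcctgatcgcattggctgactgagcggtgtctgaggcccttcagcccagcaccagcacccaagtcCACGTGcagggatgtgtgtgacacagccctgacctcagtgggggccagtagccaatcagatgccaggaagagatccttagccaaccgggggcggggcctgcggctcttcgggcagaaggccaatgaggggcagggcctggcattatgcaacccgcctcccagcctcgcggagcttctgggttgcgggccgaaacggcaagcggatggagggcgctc
Nr1d1: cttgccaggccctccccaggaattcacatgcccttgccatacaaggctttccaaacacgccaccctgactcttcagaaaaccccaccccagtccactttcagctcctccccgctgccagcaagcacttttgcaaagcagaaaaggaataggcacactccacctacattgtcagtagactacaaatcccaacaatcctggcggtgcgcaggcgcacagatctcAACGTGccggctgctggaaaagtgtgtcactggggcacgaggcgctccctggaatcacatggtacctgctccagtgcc
Cry1 held both kinds of box, with the E-box starting at base 191 and the E-prime box at base 172, and the Per1 promoter shown held an E-box at base 85. The E-prime box was also found in Cry2, at base 85, and in Nr1d1, at base 223. E-boxes thus stood in 2 of the 13 clock promoters, against 7.15% of 32851 promoters of the same length, and the E-prime box was present in 4.68% of them. Among the 13 clock promoters, the ROR and REV-ERB core AGGTCA stood in 1 promoter each of 4 genes (Per1, Clock, Arntl and Nr1d2), and it stood in 16.3% of all promoters. The D-box TTATGTAA occurred only in Per3 among these 13 promoters, at bases 46 and 93, and in 0.938% of all promoters. A match of letters is a description of the sequence and not a binding site.

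Across the clock genes, unstimulated cells had the most Nr1d1 and Dbp, control cells the most Nr1d1, and SMF cells the most Per1. In unstimulated cells the order of mean FPKM was Nr1d1 (16.5), Dbp (10.3), Clock (5.78), Nr1d2 (4.24), Arntl (3.96), Cry1 (2.32), Cry2 (1.48), Per1 (1.19), Per2 (0.973) and Per3 (listed at 0). All neighbours in this order overlapped in their libraries except Dbp with Clock and Per2 with Per3. Control cells ran Nr1d1 (11.3), Cry1 (7.31), Per1 (5.48), Dbp (5.10), Clock (2.70), Arntl (1.26), Per2 (1.16), Per3 (0.709), Nr1d2 (0.531) and Cry2 (0.446), and the neighbours that did not overlap were Dbp with Clock and Clock with Arntl. In SMF cells the order was Per1 (8.40), Cry1 (6.99), Dbp (3.53), Arntl (3.52), Clock (2.84), Cry2 (1.39), Nr1d1 (1.22), Nr1d2 (0.969), Per2 (0.263) and Per3 (listed at 0). Neighbours without overlap in SMF cells were Cry1 with Dbp, Clock with Cry2, Cry2 with Nr1d1, Nr1d1 with Nr1d2 and Nr1d2 with Per2. Nr1d1 stood first in both other groups and at the seventh place in SMF cells.

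**Figure D1:**
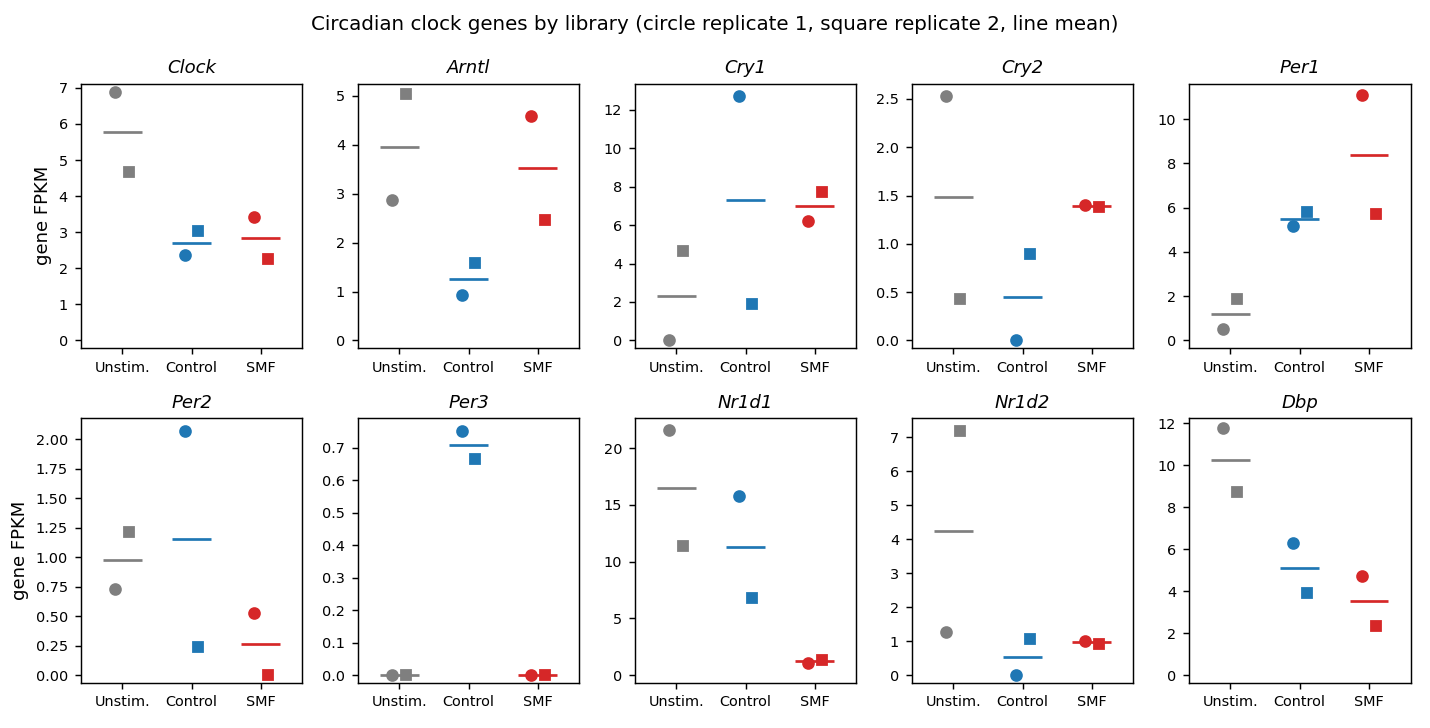
FPKM of the 10 clock genes (vertical axes, each with its own scale) in the 2 libraries of unstimulated, control and SMF cells, with circles for replicate 1, squares for replicate 2 and lines for group means. Nr1d1 sits between 6.78 and 21.6 in the unstimulated and control libraries and at 1.08 and 1.36 in the SMF libraries, whereas the 2 control values of Cry1 lie at 12.7 and 1.91.

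Of the 10 genes, 8 averaged 1 FPKM or more across the libraries and were tested with limma on log2(FPKM + 1), a scale on which the fold changes of low genes are understated. A gene was called where its fold change reached 2 and its unadjusted p did not exceed 0.05, the thresholds of the study, and adjusted p-values are by Benjamini-Hochberg over the 14991 genes tested. In control against unstimulated cells, 1 of the 8 clock genes was called higher (Per1) and 0 lower, where 12.3% of all genes tested were called higher and 12.6% lower. In SMF against control cells, 0 were called higher and 1 lower (Nr1d1), against 12.5% and 5.72% of all genes. In SMF against unstimulated cells, 1 was called higher (Per1) and 2 lower (Nr1d1 and Dbp), against 22.4% and 14.8%. Counts of 0 to 2 among 8 genes lie near these background shares. The unadjusted threshold alone was passed by 1, 1 and 3 of the 8 genes, and an adjusted p under 0.05 was reached by 0, 0 and 2. The median log2 fold change of the 8 genes was -0.78, 0.39 and -0.48 in the 3 comparisons, beside -0.05, 0.32 and 0.27 over all genes tested, so that the clock genes of SMF cells are read against a general shift upwards. With every library shifted to one median, the calls over all genes in SMF against control cells turned from 1868 higher and 857 lower to 877 higher and 1441 lower, while the same clock genes were called in each comparison. The 3 comparisons share libraries and are not independent of each other.

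**Figure D2:**
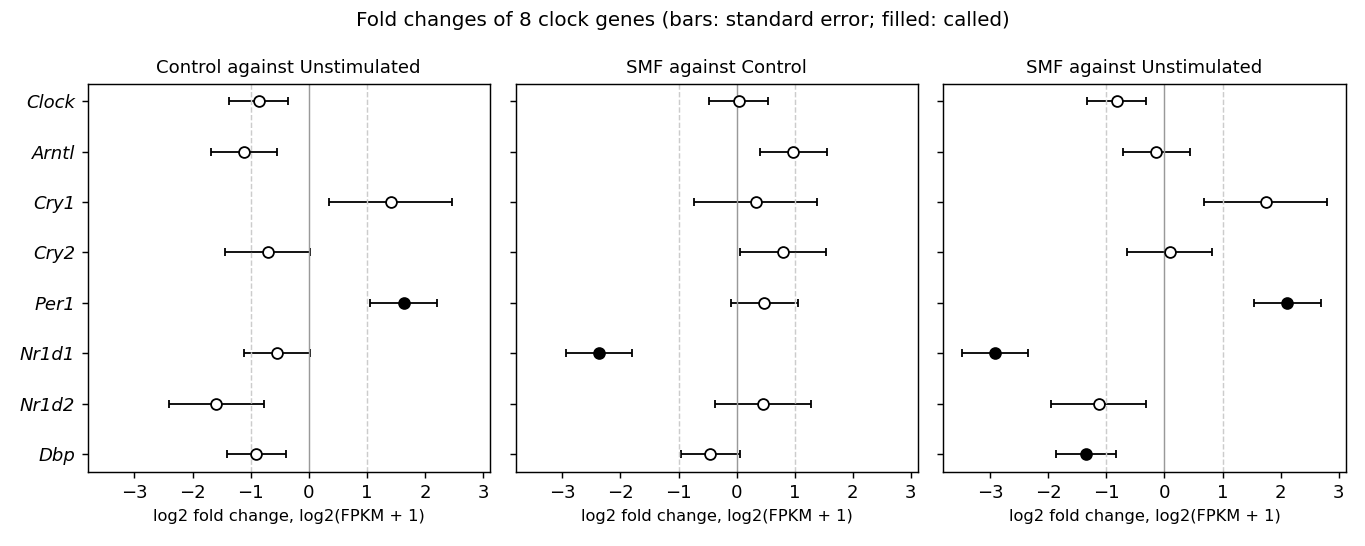
Log2 fold changes of the 8 tested clock genes (horizontal axes, on log2(FPKM + 1)) in the 3 comparisons, with bars for the standard error and filled circles for called genes. Nr1d1 stands at -2.37 in SMF against control cells and Per1 at 1.64 in control against unstimulated cells, and dashed lines mark a change of 1 on the log2 scale.

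The activators were lower in control cells than in fresh cells without being called. Clock encodes the DNA-binding partner of BMAL1 (gene ENSMUSG00000029238.11, chr5:76209868-76304792, minus strand, GRCm38). Clock was at 6.89 and 4.67 FPKM in unstimulated, 2.38 and 3.03 in control and 3.42 and 2.25 in SMF libraries. Both unstimulated libraries were above all 4 cultured libraries, and control and SMF cells overlapped. Its log2 difference was -0.86 ± 0.51 (SE) in control against unstimulated cells (limma adjusted p = 0.341), 0.04 ± 0.51 in SMF against control cells (adjusted p = 1) and -0.82 ± 0.51 in SMF against unstimulated cells (adjusted p = 0.284), and 0 of these were called. Within the runs, control minus unstimulated was -1.22 for replicate 1 and -0.49 for replicate 2.

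Arntl, which encodes BMAL1 (ENSMUSG00000055116.8, chr7:113207465-113314126, plus strand), was at 2.88 and 5.05 FPKM in unstimulated, 0.929 and 1.59 in control and 4.59 and 2.46 in SMF libraries. The control libraries were the lowest and overlapped neither of the other groups, which overlapped each other. Arntl differed by -1.11 ± 0.58 in control against unstimulated cells (limma adjusted p = 0.281), by 0.97 ± 0.58 in SMF against control cells (adjusted p = 0.375) and by -0.14 ± 0.58 in SMF against unstimulated cells (adjusted p = 0.881). The within-run differences of control minus unstimulated were -1.01 and -1.22.

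On gene sums Cry1 was above Cry2 in every library but unstimulated replicate 1, while on coding transcripts it was below Cry2 in both unstimulated libraries (0 and 0.392 against 2.53 and 0.433 FPKM). Neither cryptochrome passed the test in any of the 3 comparisons. Cry1 and Cry2 encode the repressors that give the PER and CRY complex its hold on CLOCK and BMAL1. Cry1 (ENSMUSG00000020038.10, chr10:85131700-85185064, minus strand) was listed at 0 and at 4.64 FPKM in unstimulated, at 12.7 and 1.91 in control and at 6.23 and 7.74 in SMF libraries. The 2 control libraries lay on either side of both SMF libraries, so those groups overlapped, and the SMF libraries were above both unstimulated ones. The log2 difference of SMF against control cells was 0.33 ± 1.06 (limma adjusted p = 0.898), that of control against unstimulated cells 1.41 ± 1.06 (adjusted p = 0.436) and that of SMF against unstimulated cells 1.74 ± 1.06 (adjusted p = 0.276). Control minus unstimulated was 3.78 for replicate 1 and -0.96 for replicate 2, opposite in sign between the runs. The SMF against control difference of Cry1 turned to -0.79 without control replicate 2 and was 1.45 without control replicate 1.

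The Cry1 values differed between its annotated transcripts. The annotation holds 4 Cry1 transcripts, of which the coding one of 3026 bases and 13 exons (ENSMUST00000020227.10) was at 0 and 0.392 FPKM in unstimulated, 1.96 and 1.91 in control and 3.05 and 6.34 in SMF libraries. On this transcript the groups did not overlap. In control replicate 1, 84.6% of the gene sum came from 2 short transcripts with a retained intron, 7.88 FPKM on one of 406 bases (ENSMUST00000214248.1) and 2.87 on one of 506 bases (ENSMUST00000214805.1). These transcripts also held 91.5% of the sum in unstimulated replicate 2, 51.1% and 18.2% in the SMF libraries and 0% in control replicate 2. The library with the highest Cry1 sum rested on 889 aligned bases, compared with 1251 in control replicate 2 and 3283 and 5439 in the SMF libraries. Coverage above 0 was seen in 0 and 1 exons of the 13 in unstimulated, 4 and 8 in control and 12 and 12 in SMF libraries, which were also the deepest. Summed over protein-coding transcripts alone, a choice made after seeing the data, Cry1 was called higher in control against unstimulated cells (1.31 ± 0.53 on the log2 scale) and in SMF against unstimulated cells (2.21 ± 0.53), and not in SMF against control cells (0.89 ± 0.53).

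**Figure D3:**
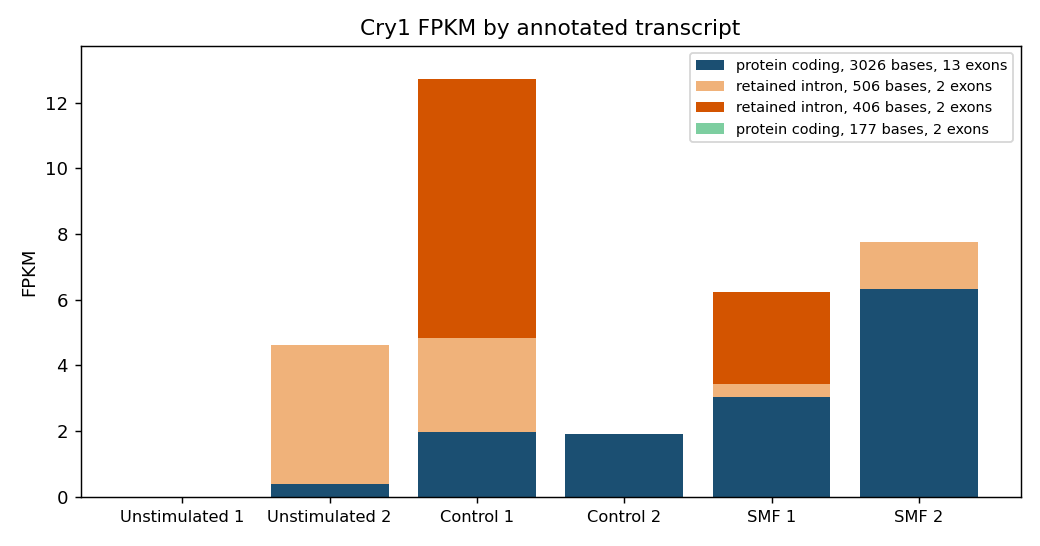
Cry1 FPKM (vertical axis) stacked by annotated transcript in each of the 6 libraries. The dark bars of the 13-exon coding transcript run from 0 to 6.34 FPKM and the orange bars of the 2 retained-intron transcripts make up most of the 12.7 FPKM in control replicate 1.

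Cry2 (ENSMUSG00000068742.11, chr2:92403646-92434043, minus strand) was at 2.53 and 0.433 FPKM in unstimulated, listed at 0 and at 0.893 in control and at 1.41 and 1.38 in SMF libraries. The SMF libraries were above both control libraries and between the unstimulated ones. Its log2 difference was 0.80 ± 0.74 in SMF against control cells (limma adjusted p = 0.553), -0.71 ± 0.74 in control against unstimulated cells (adjusted p = 0.580) and 0.09 ± 0.74 in SMF against unstimulated cells (adjusted p = 0.947). Control minus unstimulated was -1.82 and 0.40 in the 2 runs. All of the signal lay on the coding transcript of 3976 bases, over at most 6 of its 12 exons, and it rested on 0 to 1739 aligned bases per library.

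Per1 was higher in the stimulated and cultured cells than in fresh cells, whereas Per2 and Per3 stayed below the level tested. The period genes encode the partners of the cryptochromes, and Per1 also responds rapidly to outside signals in many cells. Per1 (ENSMUSG00000020893.17, chr11:69095217-69109960, plus strand) was at 0.517 and 1.86 FPKM in unstimulated, 5.17 and 5.80 in control and 11.1 and 5.72 in SMF libraries. All 4 stimulated libraries were above both unstimulated ones, and SMF replicate 2 fell between the control libraries. These values rested on 218 and 1510 aligned bases in unstimulated, 1812 and 5092 in control and 12899 and 7300 in SMF libraries. Per1 rose by 1.64 ± 0.58 on the log2 scale in control against unstimulated cells (limma, Benjamini-Hochberg adjusted p = 0.137), a call that rests on the unadjusted p, with within-run differences of 2.02 and 1.25. It rose by 2.11 ± 0.58 in SMF against unstimulated cells (limma adjusted p = 0.0454). SMF against control cells differed by 0.48 ± 0.58 (limma adjusted p = 0.663). The first call was lost without unstimulated replicate 1 (1.18), control replicate 1 (1.71) or control replicate 2 (1.57), and the second without unstimulated replicate 1 (1.65) or SMF replicate 1 (1.69).

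The transcripts behind Per1 differed between the SMF libraries. SMF replicate 1 placed 8.82 of its FPKM on a coding transcript of 18 exons that starts upstream of the promoter printed above (ENSMUST00000101004.8), which was listed at 0 in SMF replicate 2 and in both unstimulated libraries and at 2.19 and 3.09 in control libraries. The 23-exon transcript that starts at that promoter (ENSMUST00000021271.13) was at 0.517 and 1.86 in unstimulated, 2.98 and 2.70 in control and 2.26 and 5.72 in SMF libraries. Its 4 stimulated libraries were again above both unstimulated ones.

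Per2 (ENSMUSG00000055866.9, chr1:91415982-91459324, minus strand) was at 0.735 and 1.21 FPKM in unstimulated, 2.07 and 0.236 in control and at 0.527 and listed at 0 in SMF libraries. Control cells overlapped both other groups, and the SMF libraries were below the unstimulated ones. Per3 (ENSMUSG00000028957.12, chr4:151003652-151044665, minus strand) was at 0.753 and 0.665 FPKM in control cells and listed at 0 in the other 4 libraries. With no filter on low values, 0 comparisons of Per2 or Per3 were called, the log2 difference of Per3 in control against unstimulated cells being 0.77 ± 0.22 (limma adjusted p = 0.126).

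Nr1d1 was the clock gene called between SMF and control cells. It encodes REV-ERB alpha, a heme-binding repressor of Arntl (ENSMUSG00000020889.11, chr11:98767932-98775333, minus strand). Nr1d1 was at 21.6 and 11.4 FPKM in unstimulated, 15.8 and 6.78 in control and 1.08 and 1.36 in SMF libraries. The SMF libraries were below the other 4, and unstimulated and control cells overlapped. Group means were 16.5 ± 7.22 (SD), 11.3 ± 6.39 and 1.22 ± 0.200 FPKM. Nr1d1 fell by 2.37 on the log2 scale in SMF against control cells (SE 0.57, limma Benjamini-Hochberg adjusted p = 0.145, so that the call rests on the unadjusted p) and by 2.92 in SMF against unstimulated cells (SE 0.57, limma adjusted p = 0.0184). Control against unstimulated cells differed by -0.55 ± 0.57 (limma adjusted p = 0.583), with within-run differences of -0.43 and -0.67. With each library left out in turn, the SMF against control difference stayed between -2.93 and -1.81 and was called each time, and both SMF libraries came from 1 run that held no control library.

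Most of the Nr1d1 signal came from 1 end of the gene. Its coding transcript has 8 exons, and the last exon of 488 bases (chr11:98767932-98768419) carried 100% of the aligned bases of the gene in 4 libraries, 75.4% in unstimulated replicate 2 and 89.7% in control replicate 1. Over 263 bases this exon faces an exon of Thra, the thyroid hormone receptor alpha gene, on the opposite strand (chr11:98768157-98768419). The coverage of the last exon, on the FPKM scale, was 120 and 47.9 in unstimulated, 63.0 and 37.8 in control and 6.00 and 7.58 in SMF libraries. The 7 other exons of this transcript were at 0 in every library except unstimulated replicate 2, where 4 of them were covered at 3.85 to 11.8. In control replicate 1, 4.52 of the 15.8 FPKM (28.6%) lay on a non-coding transcript of 2 exons outside the last exon (ENSMUST00000139220.1, chr11:98769347-98770426). Thra itself was at 9.07 and 11.5 FPKM in unstimulated, listed at 0 and at 1.10 in control, and listed at 0 and at 0.769 in SMF libraries, with control and SMF cells overlapping. The authors' run treated the reads as stranded. The version of the kit is not given in the sources used here, and whether the strand setting matches it was not tested. The signal over exons that face another gene, in Nr1d1, in Dbp and for a part in Arntl, is therefore uncertain between both genes. When exons that face another exon were left out, an alternative chosen after seeing the data, Nr1d1 was below the level tested and 0 clock genes were called in SMF against control cells.

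**Figure D4:**
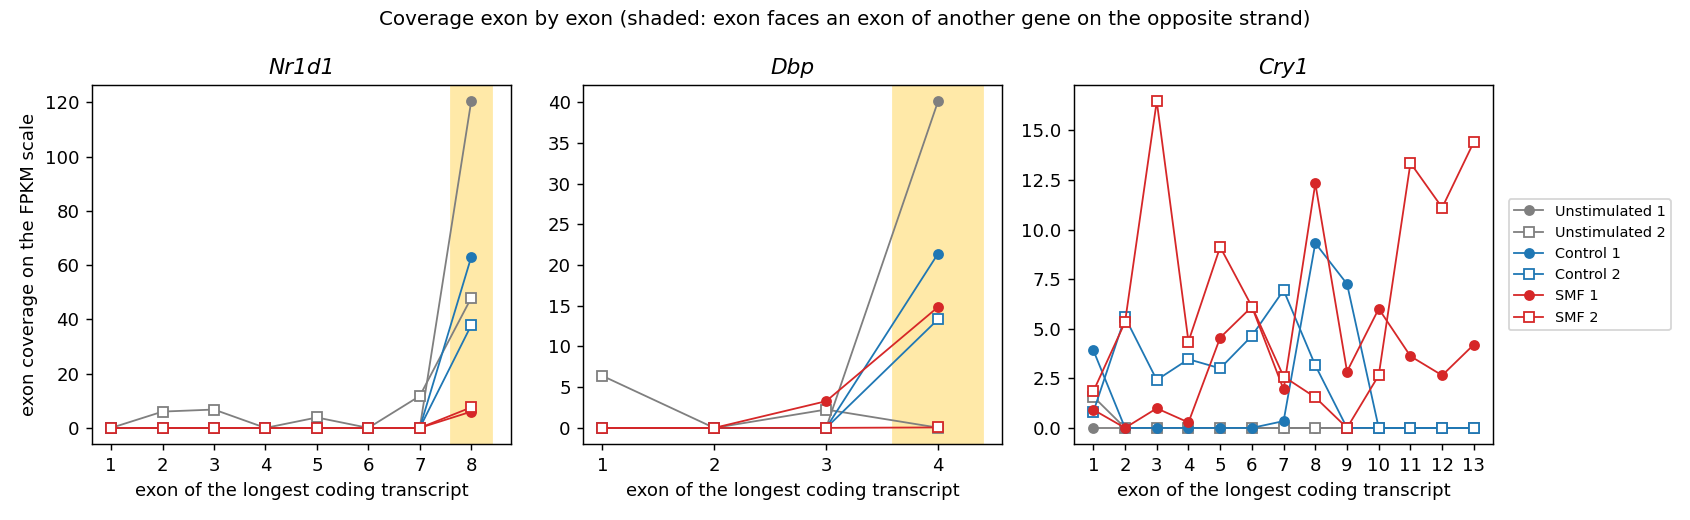
Coverage of each exon, scaled to FPKM (vertical axes), along the longest coding transcripts of Nr1d1, Dbp and Cry1 (horizontal axes, exon number from the 5′ end), with 1 line per library and shading for exons that face another gene's exon. Nr1d1 coverage stands in exon 8 at 120 to 6.00 and Dbp coverage mostly in exon 4, except in unstimulated replicate 2 (Nr1d1 exons 2, 3, 5 and 7 at 3.85 to 11.8, Dbp exon 1 at 6.40) and SMF replicate 2 (Dbp near 0), and Cry1 coverage spreads over 12 exons in each SMF library.

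Nr1d2, which encodes REV-ERB beta (ENSMUSG00000021775.11, chr14:18204054-18239127, minus strand), was at 1.27 and 7.20 FPKM in unstimulated, listed at 0 and at 1.06 in control and at 1.01 and 0.931 in SMF libraries. Both unstimulated libraries were above the other 4, and control and SMF cells overlapped. Its log2 difference was -1.59 ± 0.82 in control against unstimulated cells (limma adjusted p = 0.281), with within-run values of -1.18 and -1.99, and 0.46 ± 0.82 in SMF against control cells (adjusted p = 0.788). SMF against unstimulated cells differed by -1.13 ± 0.82 (limma adjusted p = 0.346). Without unstimulated replicate 1, the differences from unstimulated cells were -2.51 in control and -2.06 in SMF cells. In that fit the unstimulated group was replicate 2 alone, at 7.20 FPKM. Without replicate 2 instead, Nr1d2 fell below the filter and was not fitted, so these larger differences rest on 1 library.

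Dbp, a PAR bZIP factor whose transcript cycles strongly in many tissues (ENSMUSG00000059824.12, chr7:45705088-45710203, plus strand), was at 11.8 and 8.74 FPKM in unstimulated, 6.28 and 3.91 in control and 4.73 and 2.33 in SMF libraries. On these gene sums the unstimulated libraries were above all others, and control and SMF cells overlapped. Dbp fell by 1.35 on the log2 scale in SMF against unstimulated cells (SE 0.51, limma Benjamini-Hochberg adjusted p = 0.105), while control against unstimulated cells differed by -0.90 ± 0.51 (adjusted p = 0.324) and SMF against control cells by -0.45 ± 0.51 (adjusted p = 0.639). The within-run differences of control minus unstimulated were -0.81 and -0.99. The call was lost without unstimulated replicate 1 (-1.16), unstimulated replicate 2 (-1.55) or SMF replicate 2 (-0.96), with only the 4 libraries compared, with protein-coding transcripts (-1.49 ± 0.99) and with the union of exon bases (-1.19 ± 0.56). Transcripts with a retained intron held 70.1% of the Dbp sum in unstimulated replicate 2 and 99.3% in SMF replicate 2, and 0% in the other 4 libraries. On coding transcripts Dbp was at 11.8 and 2.62 FPKM in unstimulated, 6.28 and 3.91 in control and 4.73 and 0.0172 in SMF libraries, so that unstimulated cells then overlapped both other groups. As with Nr1d1, the last exon of Dbp (539 bases, chr7:45709665-45710203) faces another gene, here Sphk2, which encodes sphingosine kinase 2, over its whole length. Exons facing Sphk2 carried 100% of the aligned Dbp bases in unstimulated replicate 1 and both control libraries, 92.0% and 98.8% in the SMF libraries and 31.0% in unstimulated replicate 2. Sphk2 was at 22.5 and 30.8 FPKM in unstimulated, 9.45 and 11.5 in control and 11.8 and 9.35 in SMF libraries, also highest in fresh cells. Its part in the Dbp difference was not tested.

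Beyond the core loop, 27 further clock genes were listed by role, and 19 of them passed the filter. In control against unstimulated cells 5 of the 19 were called higher (Nfil3, Bhlhe40, Fbxw11, Tipin and Nampt) and 0 lower, beside 12.3% and 12.6% of all genes tested, with a median log2 fold change of 0.72 (all genes -0.05). In SMF against control cells 3 were called higher (Tef, Wdr5 and Timeless) and 0 lower, beside 12.5% and 5.72%, with a median of 0.47 (all genes 0.32). With libraries shifted to one median, 0 of the 19 were called in SMF against control cells, and Timeless was not called with the replicate block or with no variance trend. In SMF against unstimulated cells 10 were called higher and 0 lower, beside 22.4% and 14.8%, with a median of 1.45 (all genes 0.27). An adjusted p under 0.05 was reached by 2, 0 and 7 of the 19, and the unadjusted threshold alone was passed by 6, 5 and 10. The first count was 2 without control replicate 1 and 8 without unstimulated replicate 2, 1 of the 8 lower. The second count was 0 without control replicate 1 and 1 without either SMF library, in which Csnk1a1 was called higher or Ciart lower.

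Of the PAR bZIP, E4BP4 and E-box repressor genes tested, Bhlhe40, Nfil3 and Tef were called. Bhlhe40, an E-box repressor also known as Dec1 and induced in activated T cells, was at 5.71 and 4.77 FPKM in unstimulated, 34.6 and 29.8 in control and 41.8 and 32.2 in SMF libraries. Its control and SMF libraries were far above the unstimulated ones and overlapped each other. Bhlhe40 rose by 2.41 ± 0.34 in control (limma adjusted p = 0.0164) and by 2.60 ± 0.34 in SMF cells against unstimulated cells (adjusted p = 0.00673), with within-run control minus unstimulated values of 2.41 and 2.42. Nfil3, the E4BP4 repressor that competes with DBP for D-boxes, was listed at 0 and at 1.13 FPKM in unstimulated, at 7.71 and 7.19 in control and at 2.78 and 8.89 in SMF libraries. It rose by 2.54 ± 0.69 (limma adjusted p = 0.0762) and by 2.07 ± 0.69 (adjusted p = 0.0761) in control and SMF cells against unstimulated cells. Tef, a PAR bZIP relative of Dbp, was at 0.357 and 1.12 FPKM in unstimulated, 1.13 and 2.47 in control and 5.29 and 8.72 in SMF libraries. The SMF libraries were above all others, and Tef rose by 1.53 ± 0.60 in SMF against control cells (limma adjusted p = 0.228, not called with libraries shifted to one median) and by 2.21 ± 0.60 in SMF against unstimulated cells (adjusted p = 0.0451). Among the genes below the filter were the activators Npas2 and Arntl2, the receptors Rora and Rorb, Hlf and Bhlhe41, and Arntl2, Rorb and Hlf were listed at 0 in all 6 libraries. Ciart was not called.

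Regulators of PER and CRY proteins were called in part. Of 4 kinases, Csnk1e and Csnk1a1 were called higher in SMF against unstimulated cells, by 1.88 ± 0.67 (limma adjusted p = 0.0903) and 1.45 ± 0.31 (adjusted p = 0.0222). Csnk1a1 was at 21.2 and 24.3 FPKM in unstimulated, 37.4 and 35.6 in control and 54.1 and 75.3 in SMF libraries, with no overlap among the groups, and Csnk1e was at 3.08 and 0.284, 5.17 and 6.73, and 6.30 and 8.72. Of 3 ubiquitin ligase parts tested, Fbxw11 was called, at 1.66 and 10.2 FPKM in unstimulated, 25.5 and 13.5 in control and 26.8 and 24.4 in SMF libraries. Fbxw11 rose by 1.85 ± 0.72 in control (limma adjusted p = 0.168) and by 2.28 ± 0.72 in SMF cells (adjusted p = 0.0666) against unstimulated cells, the within-run control minus unstimulated values being 3.32 and 0.38.

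Of 5 cofactors of the PER complexes, Wdr5, Timeless, Tipin and Nono were called in 1 or more comparisons. Wdr5, a subunit of histone methyltransferase complexes, was at 2.75 and 4.90 FPKM in unstimulated, 7.34 and 8.58 in control and 20.7 and 19.8 in SMF libraries, with no overlap among the groups. Wdr5 rose by 1.25 ± 0.43 in SMF against control cells (limma adjusted p = 0.193, not called with libraries shifted to one median) and by 2.18 ± 0.43 in SMF against unstimulated cells (adjusted p = 0.0183). Timeless and Tipin encode partners at the replication fork. Timeless was at 35.3 and 19.4 FPKM in unstimulated, 5.67 and 15.4 in control and 41.4 and 19.7 in SMF libraries, and it rose by 1.50 ± 0.61 in SMF against control cells (limma adjusted p = 0.235, not called with libraries shifted to one median). Tipin was at 0.770 and 8.21, 33.4 and 23.0, and 33.9 and 53.1 FPKM, and it rose by 2.83 ± 0.78 in control (limma adjusted p = 0.0792) and by 3.43 ± 0.78 in SMF cells (adjusted p = 0.0280) against unstimulated cells. Nono, an RNA-binding cofactor of PER, was at 52.1 and 67.8, 107.8 and 89.9, and 176.9 and 168.9 FPKM in the 3 groups and rose by 1.52 ± 0.26 in SMF against unstimulated cells (limma adjusted p = 0.0130). Of 3 output genes, Nampt, the rate-limiting enzyme of NAD salvage, was called, at 6.14 and 7.48 FPKM in unstimulated, 27.2 and 34.4 in control and 30.5 and 62.3 in SMF libraries. Nampt rose by 2.02 ± 0.43 in control (limma adjusted p = 0.0431) and by 2.52 ± 0.43 in SMF cells (adjusted p = 0.0132) against unstimulated cells, with within-run values of 1.98 and 2.06.

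**Figure D5:**
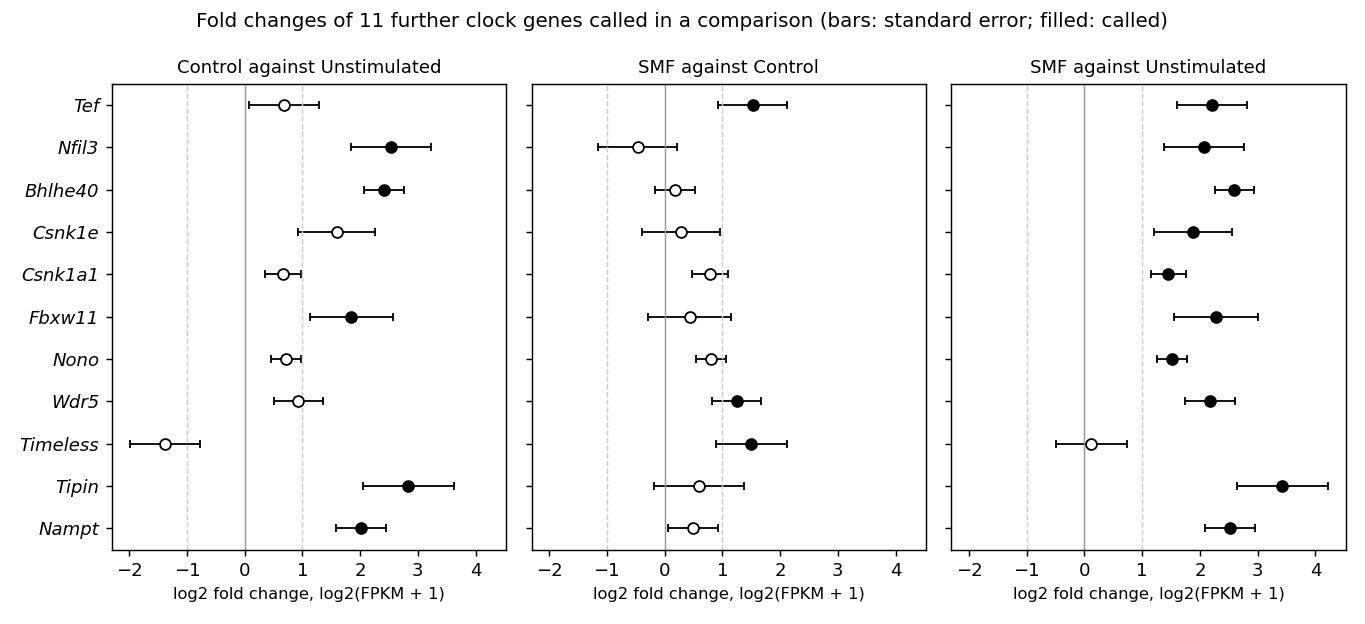
Log2 fold changes of the 11 further clock genes called in at least 1 comparison (horizontal axes, on log2(FPKM + 1)), with bars for the standard error and filled circles where called. Filled circles all lie above 0, 5 of them in the first comparison, 3 in the second and 10 in the third, and the uncalled genes of the 19 tested are not drawn.

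The genes whose levels ran most like each cryptochrome over the 6 libraries were sought among tested genes averaging 5 FPKM or more. For Cry1 these were Slc37a4, a glucose-6-phosphate transporter (Pearson r = 0.992 over the 6 libraries), Ube2w, a ubiquitin-conjugating enzyme (r = 0.988), and Usp14, a proteasomal deubiquitinase (r = 0.983), picked from 9393 genes. For Cry2 they were Gm8822 (r = 0.979), Nepro (r = 0.968) and Kpna1, an importin subunit (r = 0.962), from 9394 genes. Many other genes also had a high r with each cryptochrome. The Cry1 levels used were gene sums, which include its transcripts with a retained intron. With 6 libraries that share runs and depth, such values describe these libraries only.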

How the data were processed

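Total RNA was sequenced with a kit that preserves strand. The submitters' processing notes name Trimmomatic 0.36 and HISAT2. Per the file headers, the authors ran StringTie 1.3.5 on GRCm38 with GENCODE M19, on annotated transcripts alone and with reads treated as stranded. The 6 deposited files give FPKM, TPM and coverage per transcript, and coverage per exon. The authors' FPKM and TPM are normalized for depth and length, and the deposited coverage (reads per base) is not. In each library FPKM was a constant times coverage, which was used to put exon coverage on the FPKM scale. A further deposited table holds 3 columns that match no sample and were not used.

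FPKM was summed over the transcripts of a gene. The 14991 of 54446 genes averaging 1 FPKM or more were fitted on log2(FPKM + 1) with limma 3.58.1 in R 4.3.3, with a variance trend and 3 residual degrees of freedom. Transcript types came from GENCODE M21, which matched 137654 of 137767 transcripts. Python 3.11.15, pandas 2.3.3 and numpy 2.4.6 were used for the rest. All 37 mitochondrial genes are listed at 0 in all 6 libraries. The fit was tested on simulated data of 14991 genes, with means and spread taken from all 6 libraries. In the SMF libraries 200 genes were altered, drawn only from genes averaging above the level of 5 FPKM on the log2 scale. In SMF against control cells the fit called 100% of 8-fold changes, 94.6% of 4-fold changes and 3.98% of the genes left unaltered. Changes in lower genes, which by their mean on that scale include Clock, Arntl, Cry1, Cry2, Per1 and Nr1d2, were not simulated, so these shares do not cover them.

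The clock genes, the further genes and the marker lists were chosen with earlier results of these data known. All 10 members are named, of the further genes those called in at least 1 comparison, and the 3 genes most like each cryptochrome by Pearson r. A few uncalled genes are named besides, and a few listed genes are not reported here by name. Alternatives were pseudocounts of 0.5 and 0.1, no filter or a mean of at least 5 FPKM, a common median, gene TPM, no variance trend, only the 4 libraries compared, a replicate block and leaving out each library. Another 3 were chosen after seeing the data: protein-coding transcripts, the union of exon bases, and exons that face no exon.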

Additional observations from a re-analysis of the deposited data

How the results depend on the processing

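Most results kept their direction and their side of the threshold. Among the recomputed differences of the 8 genes, 369 did so, 7 passed the threshold only under the alternative, 12 lost it and 14 reversed. Where a gene fell below the filter under an alternative, its differences were not counted. This held for Nr1d1, Dbp and Cry2 with exons that face no exon, where the calls of Nr1d1 and Dbp were thus lost without being counted. Cry2 also fell below the filter with the union of exon bases and without unstimulated replicate 1, and Nr1d2 without unstimulated replicate 2. Clock, Arntl, Cry2 and Nr1d2 did so with a mean of at least 5 FPKM. The number of clock genes called in control against unstimulated cells, 1 as reported, became 0 with only the 4 libraries compared, 3 with protein-coding transcripts (Cry1, Per1 and Nr1d2), and 0 to 1 with a library left out. In SMF against control cells it became 0 with exons that face no exon. In SMF against unstimulated cells it stayed at 2 to 3, but Dbp was not called with only the 4 libraries compared or with any of the 3 alternatives chosen after seeing the data, and Cry1 was called higher with those 3. Of the further genes, the count in control against unstimulated cells ranged from 2 to 8 with a library left out. The count of 3 in SMF against control cells was 0 with libraries shifted to one median, 1 each with a pseudocount of 0.5 or 0.1, no filter, only the 4 libraries compared or protein-coding transcripts, and 0 to 3 with a library left out.

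The reversed differences were all differences that had not been called, although Nr1d1, with 1 of them, was called in both other comparisons. With libraries shifted to one median, SMF against control became -0.0089 for Cry1 and -0.30 for Clock, and SMF against unstimulated became -0.16 for Cry2. Clock in SMF against control was -0.072 with protein-coding transcripts and -0.035 with the union of exon bases or exons that face no exon. With a library left out, the ranges were -0.79 to 1.45 for Cry1, -0.18 to 0.26 for Clock and -0.067 to 0.98 for Nr1d2 in SMF against control, -0.56 to 0.10 for Cry2 and -0.49 to 0.21 for Arntl in SMF against unstimulated, and -1.10 to 0.0067 for Nr1d1 in control against unstimulated. Cry2 has no value without unstimulated replicate 1, its highest library at 2.53 FPKM, because it then fell below the filter. Nr1d2 likewise has none without unstimulated replicate 2. The cause of the reversals was not tested. Where a group was left with 1 library, that library was taken to vary like the others.

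Samples with the same replicate number deviated from their group means with correlations of 0.096, 0.030 and 0.021 (unstimulated with control, unstimulated with SMF, control with SMF). In unstimulated and control cells a number also marks a shared run, which the within-run differences use, and in SMF cells it is only a number. With the replicate block, the counts of clock genes called were 1, 1 and 3, for the same genes, and those of further genes 5, 2 and 10.

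Depth limits most single values: genes at a few FPKM rest on few aligned bases, fold changes of low genes are understated, and whole reads could not be recovered from the values. With 2 libraries a group, a difference that missed the threshold does not show that levels were equal. Run and field cannot be told apart between SMF cells and either of the other groups.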
